A study of Mus musculus with 16 samples.

Results

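The interferon regulatory factors are a family of transcription factors, and 8 of its genes, *Irf1* to *Irf5* and *Irf7* to *Irf9*, were taken by name from RNA-seq counts of peritoneal tumor-associated macrophages (TAMs). They are 8 of the 55604 genes counted, and all 8 had enough reads to be tested. The TAMs came from the peritoneal wash of wild-type, young adult female C57BL/6 mice bearing ID8, a mouse ovarian cancer line that grows in the peritoneal cavity, and the labels name no other treatment or allele for either group. Tim-4+ TAMs were taken with magnetic beads against Tim-4, a phosphatidylserine receptor of residential macrophages, and Tim-4- TAMs were then taken from the remaining cells with beads against F4/80. Each of the numbered pairs 793, 784, 783 and 779 gave 1 library per subset, which makes 8 libraries, 4 per subset. The labels do not say whether a pair number stands for a single mouse or for pooled mice.

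Cells that sense microbial nucleic acids or damage activate Irf3, Irf7 and Irf5 by phosphorylation, and these factors then switch on type I interferon and cytokine genes. Secreted interferon signals back through JAK kinases and STAT factors. Type I interferon assembles ISGF3, a complex that holds Irf9 and binds the interferon-stimulated response element, and interferon-gamma acts through gamma-activated sites and induces *Irf1*. *Irf2*, the closest relative of *Irf1*, binds the same elements and mostly opposes it. *Irf4* and *Irf8* are restricted largely to immune cells, work with the macrophage factor PU.1, and take part in alternative activation and in monocyte and macrophage development.

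The factors share a DNA-binding region at the start of the protein, and several of the genes carry interferon response elements before their own start sites. Over the aligned part of the first 120 residues of the annotated proteins, Irf1 and Irf2 were identical at 72.5% of positions, Irf4 and Irf8 at 75.5%, and Irf3 and Irf7 at 42.9%. Promoters from 250 bases before to 50 bases after a RefSeq start (GRCm38.p6) were on hand for all 8 genes, as 11 promoters. They were searched on both strands for GAAA followed by any 2 bases and GAAA, the core of the interferon-stimulated response element, and for TTCNNNGAA, the gamma-activated site. Of all 32851 promoters, 3.44% held the first motif and 8.30% the second. Counted by gene, the shares were 3.99% and 9.55% of 27025 genes. *Irf2*, which was higher in Tim-4+ TAMs, held both. *Irf1* held 1 gamma-activated site and *Irf8* held 2, and the promoters of *Irf3*, *Irf4*, *Irf5*, *Irf7* and *Irf9* matched neither motif in this window. The matches follow, because they tell *Irf1*, *Irf2* and *Irf8* apart from the other members, with the motif in capitals and 12 flanking bases where the promoter reaches that far, on the plus strand.
Irf2, response element core, chr8:46739495-46739525: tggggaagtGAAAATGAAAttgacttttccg
Irf2, gamma-activated site, chr8:46739509-46739541: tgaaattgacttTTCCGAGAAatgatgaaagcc
Irf1, gamma-activated site, chr11:53769912-53769944: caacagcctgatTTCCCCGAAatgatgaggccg
Irf8, gamma-activated site, chr8:120736175-120736207: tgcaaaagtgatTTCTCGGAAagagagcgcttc
Irf8, gamma-activated site, chr8:120736193-120736225: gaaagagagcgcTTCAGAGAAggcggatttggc
The *Irf2* elements lay at bases -241 to -232 and -224 to -216 from the start. The *Irf1* site lay at -90 to -82, and the *Irf8* sites at -171 to -163 and -153 to -145. The windows around the *Irf1* and *Irf2* sites shared a run of 10 bases, GAAATGATGA. A match is a stretch of letters and no measurement of binding.

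The libraries held 53527928 to 69594245 counts, and levels are given as CPM, the count of a gene relative to its library's total after TMM scaling, multiplied by 1000000. On this scale 3 counts correspond to 0.0382 to 0.063 CPM. *Timd4*, which encodes Tim-4, averaged 1149 CPM in Tim-4+ and 30.1 CPM in Tim-4- TAMs. Its highest level among the Tim-4- libraries was 84.98 CPM, in pair 793. *Timd4* stood out of place in 1 of the 2 lanes of that library and was put back by its symbol, and the lanes held 2865 and 2804 counts of it. Macrophage markers were abundant in both subsets, with a summed level of 43280 to 55720 CPM in Tim-4+ and 20880 to 33380 CPM in Tim-4- TAMs. That sum was mostly *Lyz2*, at 33410 to 46930 CPM and 16050 to 27080 CPM. Of this list *Mrc1* fell in Tim-4+ TAMs, *Csf1r* and *Fcgr1* did not pass the test given below, and the other members rose. A list of 8 mesothelial and tumor cell markers fell in Tim-4+ TAMs at 8 of 8 genes, from a summed level of 410.5 to 1909 CPM in Tim-4- TAMs to 103.3 to 382.0 CPM. *Ccr2*, the chemokine receptor of monocytes, ranged from 114.5 to 141.9 CPM in Tim-4- TAMs and from 5.94 to 15.96 CPM in Tim-4+ TAMs. In such bulk samples, fewer cells of a type and less RNA per cell cannot be told apart, and the part of these cells in the Irf values was not tested.

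The comparison of Tim-4+ with Tim-4- TAMs asks which members of the family differ between the macrophage subsets of the same tumors. *Irf7* and *Irf2* rose in Tim-4+ TAMs, and no tested Irf gene fell, except that scaling by total counts, which moved the median of all genes to -0.36, made *Irf3* (-0.50) and *Irf5* (-0.34) lower. Thus 2 of 8 tested members were higher, against 8.97% of all 16861 genes tested (edgeR quasi-likelihood test with the pair as a block, adjusted p under 0.05). With total counts, 4.68% of all genes were higher and 29.1% lower. The count of lower members was 0 against 8.43% of all genes. It was also 0 at an unadjusted p under 0.05 and 0 with DESeq2, which called 13% of all genes higher and 13.8% lower. For counts at an unadjusted p, here and below, the share of all genes was not computed. The median log2 fold change of the 8 members was 0.12, and that of all genes tested was -0.0012.

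*Irf7* (ENSMUSG00000025498, chromosome 7, 141262706 to 141266481 in GRCm38, minus strand) is itself an interferon-induced gene and drives the amplification of interferon-alpha genes. In Tim-4+ TAMs it was measured at 218.4, 1070, 172.9 and 703.2 CPM in pairs 793, 784, 783 and 779. In Tim-4- TAMs it was measured at 113.9, 415.1, 94.31 and 280.8 CPM in the same order. Tim-4+ TAMs were higher within every pair, while the subsets overlapped across pairs, because pairs 784 and 779 were high in both subsets. The log2 ratios within pairs were 0.94, 1.37, 0.87 and 1.32. The fitted log2 fold change was 1.13 (SE 0.14), a 2.18-fold difference, with an adjusted p of 0.00637 by edgeR. Leaving out any of the 4 pairs kept it between 1.04 and 1.21, with an adjusted p of at most 0.0484 by edgeR. Without the block the value was 1.26 (edgeR adjusted p = 0.320).

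*Irf2* (ENSMUSG00000031627, chromosome 8, 46739732 to 46847458, plus strand) was measured at 265.8, 194.4, 139.7 and 263.3 CPM in Tim-4+ TAMs of pairs 793, 784, 783 and 779. In Tim-4- TAMs it was measured at 145.8, 86.87, 86.12 and 82.51 CPM. The Tim-4- library of pair 793 stood above the others of its subset and above the Tim-4+ library of pair 783, so the subsets overlapped by that library, which was also the Tim-4- library with the most *Timd4*. The log2 ratios within pairs were 0.87, 1.16, 0.70 and 1.67. The fitted log2 fold change was 1.10 (SE 0.17), a 2.14-fold difference, with an adjusted p of 0.00912 by edgeR. Without pair 793 it was 1.18 with an adjusted p of 0.0291 by edgeR, and without pair 784 it was 1.08 and no longer passed, with an adjusted p of 0.0691 by edgeR. Without the block the value was 1.10, with an adjusted p of 0.0615 by edgeR.

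**Figure D1:**
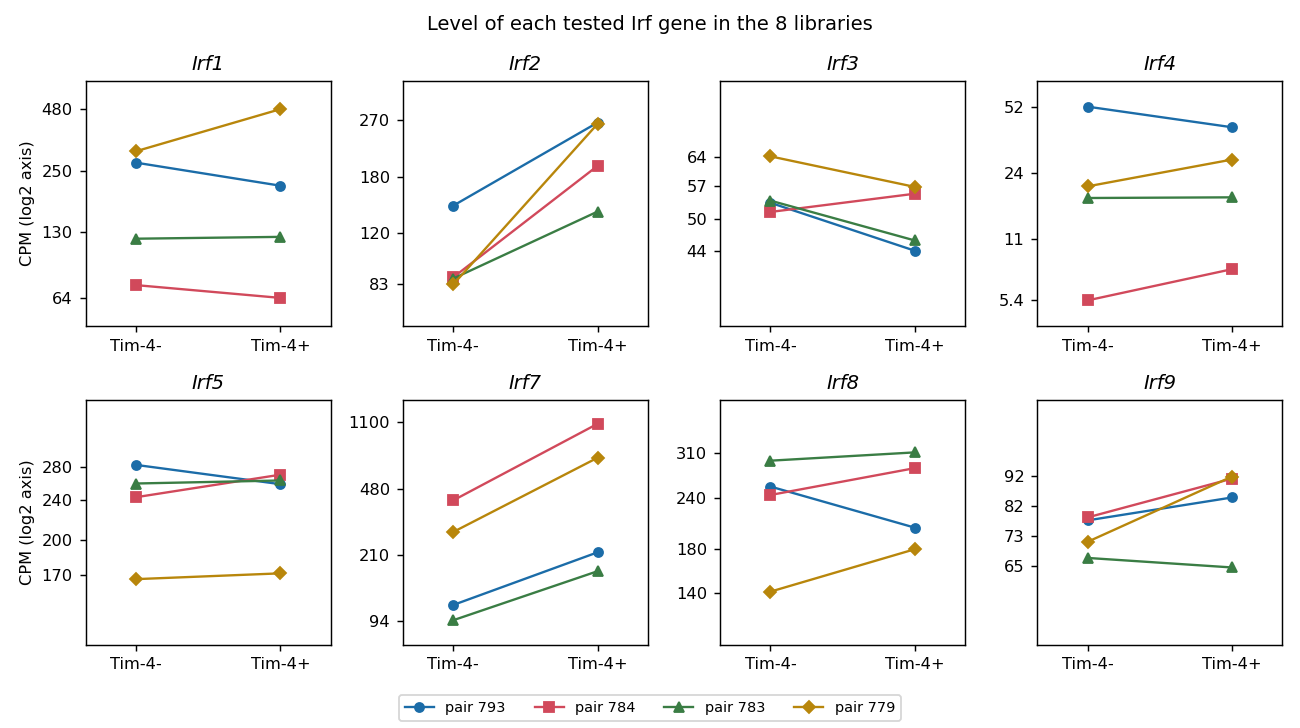
Level of the 8 tested Irf genes in CPM on a log2 axis (each panel has its own range), in Tim-4- TAMs (left) and Tim-4+ TAMs (right); each line joins the 2 libraries of a pair. The lines of *Irf2* and *Irf7* go up in all 4 pairs, while those of the other genes go both ways.

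The other factors that act downstream of nucleic acid sensors did not pass the test. *Irf3*, the latent factor that TBK1 phosphorylates to induce *Ifnb1* (chromosome 7, 44997648 to 45002848), was measured at 44.13, 55.38, 45.97 and 56.91 CPM in Tim-4+ TAMs. It was measured at 53.42, 51.5, 53.88 and 64.28 CPM in Tim-4- TAMs. Tim-4+ TAMs were lower in 3 pairs and higher in pair 784, and the log2 fold change was -0.14 (SE 0.11, edgeR adjusted p = 0.389). *Irf5*, which acts below Toll-like receptors and MyD88 on inflammatory cytokine genes (chromosome 6, 29526625 to 29541871), was measured at 258.4, 269.9, 262.8 and 171.6 CPM in Tim-4+ TAMs. In Tim-4- TAMs it was measured at 282.3, 243.4, 259.2 and 167.1 CPM. Its log2 fold change was 0.02 (SE 0.11, edgeR adjusted p = 0.924), and pair 779 was the lowest in both subsets. With *Tnpo3* on the opposite strand *Irf5* shares 14.1% of its exon bases, and its counts there are uncertain because the strand setting of the counting is not given in the sources used here. The other Irf genes shared at most 3.4% with another gene.

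Of the factors that act downstream of the interferon receptors, neither *Irf1* nor *Irf9* passed. *Irf1* (chromosome 11, 53770014 to 53778374) was measured at 212.7, 64.23, 123.2 and 481.5 CPM in Tim-4+ TAMs. Their Tim-4- partners held 272.0, 73.61, 120.8 and 307.3 CPM. Its log2 ratios within pairs went from -0.35 in pair 793 to 0.65 in pair 779, with a fitted value of 0.03 (SE 0.17, edgeR adjusted p = 0.928). *Irf9*, the DNA-binding part of ISGF3 (chromosome 14, 55603571 to 55610030), was measured at 84.77, 91.22, 64.55 and 91.96 CPM in Tim-4+ TAMs. In Tim-4- TAMs it was measured at 77.54, 78.44, 66.99 and 71.33 CPM. It was higher in Tim-4+ TAMs in 3 of 4 pairs, and its log2 fold change was 0.16 (SE 0.11, edgeR adjusted p = 0.325).

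The pair of PU.1 partners showed no difference past the threshold either. *Irf8* (chromosome 8, 120736358 to 120756694) was measured at 202.8, 284.3, 310.9 and 179.4 CPM in Tim-4+ TAMs. The Tim-4- partners held 256.1, 244.1, 296.6 and 141.0 CPM, and the log2 fold change was 0.07 (SE 0.14, edgeR adjusted p = 0.750). *Irf4* (chromosome 13, 30749226 to 30766976) was measured at 40.93, 7.763, 18.01 and 28.03 CPM in Tim-4+ TAMs. In Tim-4- TAMs it was measured at 52.09, 5.387, 17.87 and 20.48 CPM, with a log2 fold change of 0.16 (SE 0.17, edgeR adjusted p = 0.555). Both genes were lower in Tim-4+ TAMs in pair 793 and higher in the other 3 pairs.

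**Figure D2:**
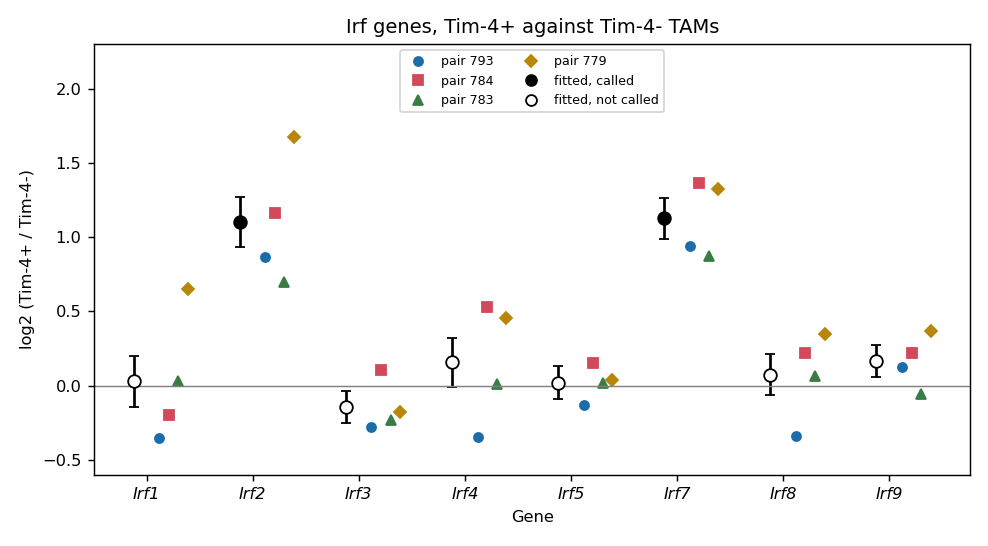
log2 ratio of Tim-4+ over Tim-4- TAMs for the 8 tested Irf genes: circles in black are the fitted fold change with its standard error (filled where called), and colored symbols are the 4 pairs. *Irf2* and *Irf7* lie near 1.1 with all pairs above 0, and each of the other 6 genes has pairs on both sides of 0.

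The members differed widely in how much they varied between pairs. The SD of log2 CPM over the 4 pairs, averaged over both subsets, was 1.15 for *Irf7*, 1.15 for *Irf4* and 1.10 for *Irf1*. These values lay at the 98.9th, 98.9th and 98.7th percentile of genes averaging 10 CPM or more, whose median was 0.27. *Irf9* (0.17) and *Irf3* (0.16) lay at the 19.5th and 16.4th percentile, and *Irf2*, *Irf5* and *Irf8* lay between 0.32 and 0.42. The highest pair exceeded the lowest 6.19-fold for *Irf7* in the Tim-4+ and 4.40-fold in the Tim-4- libraries. For *Irf1* the factors were 7.50 and 4.18, and for *Irf4* 5.27 and 9.67.

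The order of the pairs was the same in both subsets for each of these 3 genes, but it was not the same between genes. *Irf7* was highest in pair 784, followed by 779, 793 and 783. *Irf1* and *Irf4* were lowest in pair 784 in both subsets. *Irf1* was highest in pair 779 and *Irf4* in pair 793. The summed level of 20 type I interferon response genes had the order of *Irf7*. In pairs 793, 784, 783 and 779 it was 1140, 2631, 869.8 and 1523 CPM in Tim-4+ TAMs, and the Tim-4- partners held 929.0, 2159, 899.2 and 1304 CPM. The summed level was 1.23, 1.22, 0.967 and 1.17 times as high in Tim-4+ as in Tim-4- TAMs. These ratios are smaller than those of *Irf7* within every pair, and that difference was not tested.

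**Figure D3:**
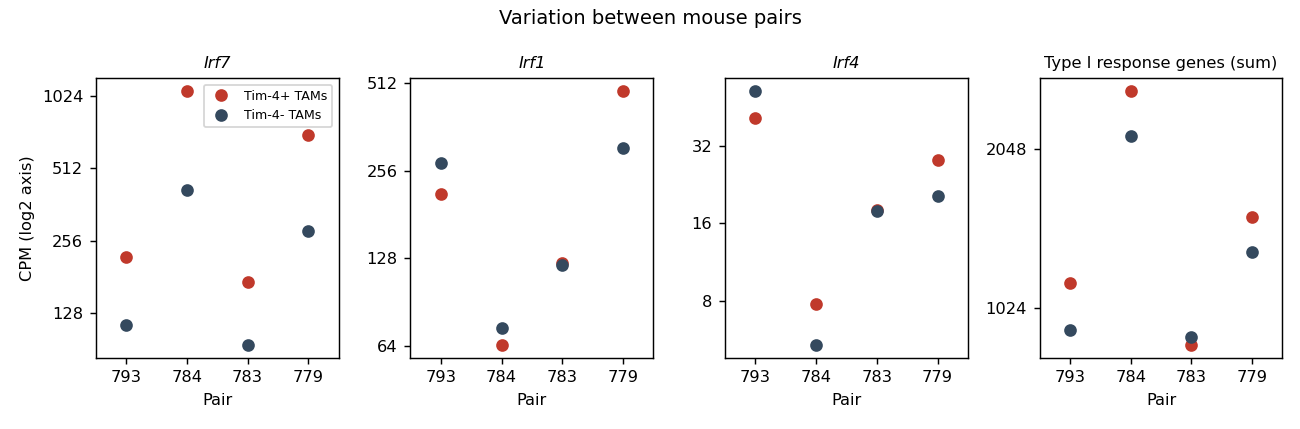
Level in CPM (log2 axis, each panel with its own range) of *Irf7*, *Irf1*, *Irf4* and the sum of 20 type I interferon response genes by pair, with Tim-4+ TAMs in red and Tim-4- TAMs in dark blue. Pair 784 is the highest for *Irf7* and for the summed genes and the lowest for *Irf1* and *Irf4*.

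Levels of different genes were compared as CPM per kilobase of exon. In Tim-4+ TAMs *Irf7* was the highest member at 143.3 ± 113 CPM per kb (SD, n = 4), followed by *Irf5* at 82.9 ± 15.9 and *Irf1* at 55.4 ± 46.4. *Irf8* (34.6 ± 8.95) and *Irf2* (29.2 ± 8.19) came next, then *Irf9* (15.4 ± 2.38), *Irf3* (14.7 ± 1.88) and *Irf4* (4.83 ± 2.89). In Tim-4- TAMs *Irf5* was first at 81.9 ± 17.2 CPM per kb (SD, n = 4), followed by *Irf7* at 59.9 ± 40.1, *Irf1* at 48.7 ± 28.6 and *Irf8* at 33.2 ± 9.39. *Irf3* (16.2 ± 1.68), *Irf9* (13.7 ± 1.0) and *Irf2* (13.6 ± 4.11) followed, and *Irf4* was again the last of the tested members at 4.89 ± 4.05. Neighbors from *Irf7* or *Irf5* down to *Irf8* overlapped between libraries in both subsets, as did *Irf8* with *Irf2* and *Irf9* with *Irf3* in Tim-4+ TAMs and *Irf9* with *Irf2* in Tim-4- TAMs, so their order is not resolved. *Irf2* lay above *Irf9* in Tim-4+ TAMs and *Irf3* above *Irf9* in Tim-4- TAMs without overlap, and *Irf4* lay below all other tested members in both. With the length of the longest coding transcript in place of all exons, *Irf7* was also the highest in Tim-4- TAMs, at 118.0 against 106.2 CPM per kb for *Irf5*. On that scale *Irf2* lay above *Irf3* and *Irf9* in Tim-4- TAMs without overlap, at 33.04 or more against 31.65 or less. *Irf3* and *Irf9* then overlapped, with 25.36 to 31.65 against 22.64 to 26.51 CPM per kb.

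*Irf7* made up 17.7% to 57.4% of the summed CPM per kb of the family in Tim-4+ and 10.3% to 38.0% in Tim-4- TAMs. *Irf5* made up 12.7% to 34.9% and 20.8% to 38.8%. The summed level was 301.9, 493.8, 259.2 and 466.7 CPM per kb in Tim-4+ TAMs of pairs 793, 784, 783 and 779, against 292.3, 289.2, 230.0 and 276.4 CPM per kb in Tim-4- TAMs. Tim-4+ TAMs were thus above their partners in all 4 pairs, by the most in pairs 784 and 779, where *Irf7* was high. *Irf7* is part of that sum, so the sum does not show that the other members were higher.

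**Figure D4:**
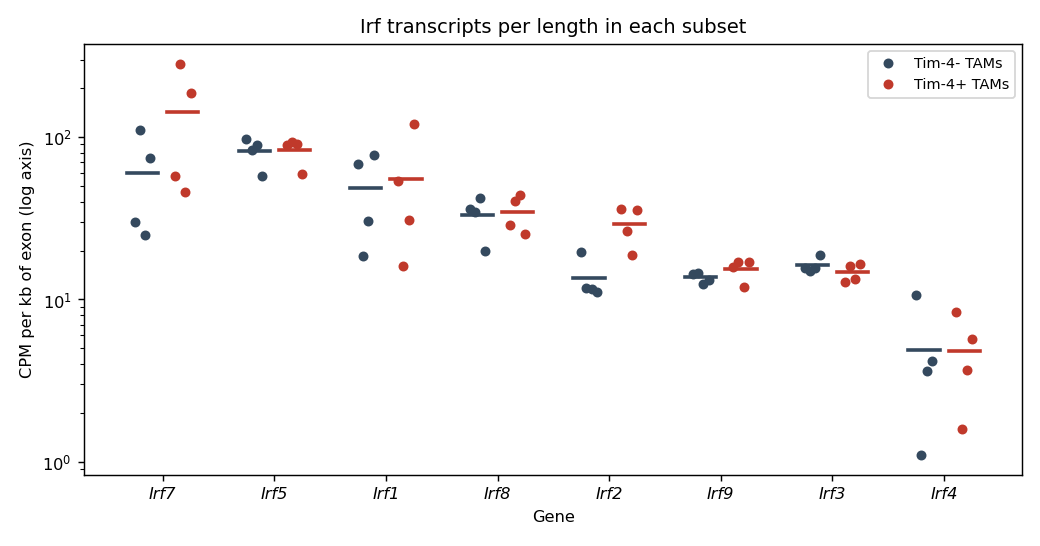
Level of the 8 tested Irf genes in CPM per kb of exon (log axis), with a point per library and a bar at the mean of 4 libraries, Tim-4- TAMs in dark blue and Tim-4+ TAMs in red. *Irf7* spans 45.8 to 283.5 CPM per kb in Tim-4+ TAMs and *Irf4* is the lowest in both subsets.

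For 3 pairs of related factors the ratio of levels was compared between subsets by an exact two-sided permutation test with subsets swapped within pairs, whose smallest possible p is 0.125. The *Irf1* to *Irf2* ratio per kb was 1.49, 0.615, 1.64 and 3.40 in Tim-4+ TAMs of pairs 793, 784, 783 and 779. In Tim-4- TAMs it was 3.47, 1.58, 2.61 and 6.93. With the length of the longest coding transcript, the Tim-4+ library of pair 793 held *Irf1* at 99.52 and *Irf2* at 106.4 CPM per kb. Which gene was higher there thus depends on the length used. The log2 ratio was lower in Tim-4+ TAMs in 4 of 4 pairs, by -1.07 on average (SD 0.30, n = 4, exact permutation p = 0.125, 0.1875 adjusted over 3 ratios). The *Irf7* to *Irf3* ratio was 4.51, 17.6, 3.43 and 11.3 in Tim-4+ TAMs, against 1.94, 7.35, 1.60 and 3.98 in their partners. It was higher in Tim-4+ TAMs in 4 of 4 pairs, by 1.27 on the log2 scale (SD 0.17, n = 4, exact permutation p = 0.125, adjusted 0.1875). The *Irf4* to *Irf8* ratio ranged from 0.0393 to 0.290 in Tim-4+ and from 0.0318 to 0.293 in Tim-4- TAMs. Its log2 difference was 0.09 (SD 0.16, n = 4, exact permutation p = 0.5), higher in 2 of 4 pairs. The design cannot reach p under 0.05 in this test. The ratios with *Irf2* or *Irf7* use the same counts as the calls of these genes, so they are no separate evidence.

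By the root mean square difference of the 4 log2 ratios, the protein-coding genes most like *Irf2* among 8525 searched were *Pirb* (0.0952), *Plek* (0.0996) and *Lcp2* (0.107). *Pirb* encodes an inhibitory immunoglobulin-like receptor, *Plek* pleckstrin, and *Lcp2* the adaptor SLP-76. Their fitted log2 fold changes were 1.02, 1.13 and 1.12. Those most like *Irf7* were *Epb41l3* (0.125), *Lrmda* (0.127) and *Plaur* (0.132), the last of which encodes the urokinase receptor. Their fitted log2 fold changes were 1.09, 1.08 and 1.08. The likeness is over 4 pairs and describes the pattern alone.

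Interferon transcripts themselves were nearly absent from the counts. Of 21 type I, II and III interferon genes, 17 had 0 counts in all 8 libraries and none had enough counts to be tested. The highest single counts were 10 for *Ifnb1*, 7 for *Ifnk*, 4 for *Ifne* and 3 for *Ifng*. Reads that the counter set aside, such as those that were not unique, are not in these counts. Their part in the 0 counts of the other interferon genes was not tested. The interferon receptors were all expressed. *Ifnar2*, a chain of the type I receptor, rose by 0.89 on the log2 scale in Tim-4+ TAMs (SE 0.13, edgeR adjusted p = 0.00875), from 72.4 ± 7.58 to 134.2 ± 14.3 CPM (SD, n = 4). *Il10rb*, the chain shared by the receptors for interleukin-10 and interferon-lambda, rose by 0.60. The partner chain *Ifnar1* was at 119.8 ± 10.9 CPM in Tim-4+ and 125.7 ± 25.9 CPM in Tim-4- TAMs, with a log2 fold change of -0.05 that did not pass. *Ifngr1* had a value of -0.01 and did not pass. *Ifnlr1* fell by 2.07 on the log2 scale from a low level of 7.36 CPM (edgeR adjusted p = 0.0476). In all, 2 of 6 receptor genes rose and 1 fell, against 8.97% and 8.43% of all genes tested, and the median was 0.03. Without pair 793 or without pair 779, 1 rose and 0 fell. Without pair 784, 0 rose and 0 fell. For comparison, 800 of all 17122 genes tested rose and 525 fell without pair 793. These counts were 469 and 350 of 17058 without pair 779, and 91 and 67 of 17038 without pair 784. With total counts 1 rose and 3 fell, against 4.68% and 29.1% of all genes. *Ifnar1* (-0.41) and *Ifngr1* (-0.37) were then called lower. *Ifnlr1* lost its call with lane 2 alone, without the lane listed by symbols and with no count filter, at edgeR adjusted p-values of 0.0721, 0.0611 and 0.166. *Ifnar2* and *Il10rb* were picked out here after their values were seen.

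Of 22 sensors, adaptors and kinases upstream of Irf3, Irf5 and Irf7, 2 rose and 2 fell, with a median of 0.23, and these shares are near the 8.97% and 8.43% of all genes tested. *Ikbke*, a kinase of Irf3 and Irf7, rose by 0.58 on the log2 scale (SE 0.14, edgeR adjusted p = 0.0285), and *Tank*, its scaffold, rose by 0.47. *Sting1*, the adaptor of cytosolic DNA sensing, fell by 0.74 (SE 0.12, edgeR adjusted p = 0.0104), from 63.5 ± 8.82 to 38.7 ± 11.0 CPM (SD, n = 4), and was lower in 4 of 4 pairs. *Slc15a4*, an endolysosomal transporter needed for Irf5 activation, fell by 0.44. *Irak1* had a value of 0.31 and did not pass. The count of genes that rose was 0 without pair 793, without pair 784 or without pair 779. The count that fell was 1 without pair 793, 783 or 779 and 0 without pair 784. Of all genes, 800 rose without pair 793, 91 without pair 784 and 469 without pair 779. The counts of all genes that fell were 525, 67, 1975 and 350 without pairs 793, 784, 783 and 779. With lane 2 alone, or without the lane listed by symbols, 4 rose and 1 fell. Of all genes, 1396 of 15227 rose and 1323 fell with lane 2 alone. Without the lane listed by symbols 1497 of 16638 rose and 1370 fell. With DESeq2 5 of the list rose and 3 fell, against 13% and 13.8% of all genes. With total counts 0 rose and 4 fell, against 4.68% and 29.1% of all genes. *Ikbke* was then at 0.22 with an edgeR adjusted p of 0.127.

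Of 13 binding partners and regulators, 0 rose and 1 fell, against 8.97% and 8.43% of all genes tested. *Batf3*, the partner of Irf8 in dendritic cells, fell by 2.25 on the log2 scale (SE 0.38, edgeR adjusted p = 0.0114) from 2.79 CPM to 0.529 CPM. The conventional dendritic cell markers summed to 12.3 to 20.7 CPM in Tim-4+ and 10.5 to 18.5 CPM in Tim-4- TAMs, and the part of these cells in *Batf3* was not tested. Of the 7 markers *Cd209a* rose by 2.02 and *Zbtb46* fell by 0.89 on the log2 scale, and *Xcr1* and *Clec9a* reached at most 0.786 and 1.91 CPM in any library. *Spi1*, which encodes PU.1, was at 382.4 ± 194.8 CPM (SD, n = 4) in Tim-4+ and 249.3 ± 67.7 CPM in Tim-4- TAMs. *Spi1* missed the threshold with a log2 fold change of 0.54 and an edgeR adjusted p of 0.0557. *Irf2bp2*, a corepressor of Irf2, had a value of 0.41 and an adjusted p of 0.0515 by edgeR. None of the list rose by edgeR, and 4 had a positive value with an unadjusted p under 0.05. By DESeq2 4 rose, against 13% of all genes. Without pair 783, 3 rose, and with no count filter 1 rose (*Spi1*). Of all genes tested, 1608 of 16774 and 1508 of 31139 rose in these settings. With total counts 6 fell, against 29.1% of all genes. The median was 0.02.

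Type I interferon response genes, the targets of ISGF3, divided into those that rose and a majority that did not pass. Of 20 genes 6 rose and 0 fell, against 8.97% and 8.43% of all genes tested. The median was 0.13. *Rsad2*, which encodes viperin, rose the most, by 1.39 on the log2 scale (SE 0.14, edgeR adjusted p = 0.00395), from 28.9 ± 17.8 to 79.5 ± 54.8 CPM (SD, n = 4). *Cmpk2*, its neighbor, rose by 0.67, and *Rtp4*, *Oas3*, *Oasl1* and *Zbp1* rose by 0.58, 0.58, 0.51 and 0.48. The most abundant members, *Oas2* (0.31) and *Oasl2* (0.0013), did not pass. *Isg15* (-0.02) and *Ifit1* (0.02), chosen after their values were seen, were at 25.8 and 24.6 CPM and at 19.2 and 19.4 CPM in Tim-4+ and Tim-4- TAMs. 1 gene had a negative value with an unadjusted p under 0.05, and DESeq2 called 1 lower, against 13.8% of all genes. The count of genes that rose was 2 without pair 793, 1 without pair 784 and 2 without pair 779. Of all genes, 800, 91 and 469 rose in these settings. With total counts 1 rose and 4 fell, against 4.68% and 29.1% of all genes.

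None of 15 interferon-gamma and Irf1 response genes rose by edgeR and 3 fell, against 8.97% and 8.43% of all genes tested. The median was -0.09. *Ciita*, the regulator of MHC-II genes, fell by 1.78 on the log2 scale (SE 0.30, edgeR adjusted p = 0.0141), from 46.6 ± 20.1 CPM to 15.6 ± 13.1 CPM (SD, n = 4). *Cxcl9* and *Irgm1* fell by 0.88 and 0.40. *Tap1* (-0.29) and *Nlrc5* (-0.14), which serve MHC-I, did not pass. With an unadjusted p under 0.05, 4 of the list had a positive and 5 a negative value. DESeq2 called 1 higher, against 13% of all genes. With total counts 8 fell, *Tap1* (-0.65) and *Nlrc5* (-0.49) among them, against 29.1% of all genes. The count of genes that fell was 1 without pair 793, 783 or 779 and 0 without pair 784. Of all genes, 525, 1975, 350 and 67 fell in these settings, in the same order. *Ciita* lost its call without pair 784, without pair 779 and with no count filter, the last at an edgeR adjusted p of 0.0708.

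**Figure D5:**
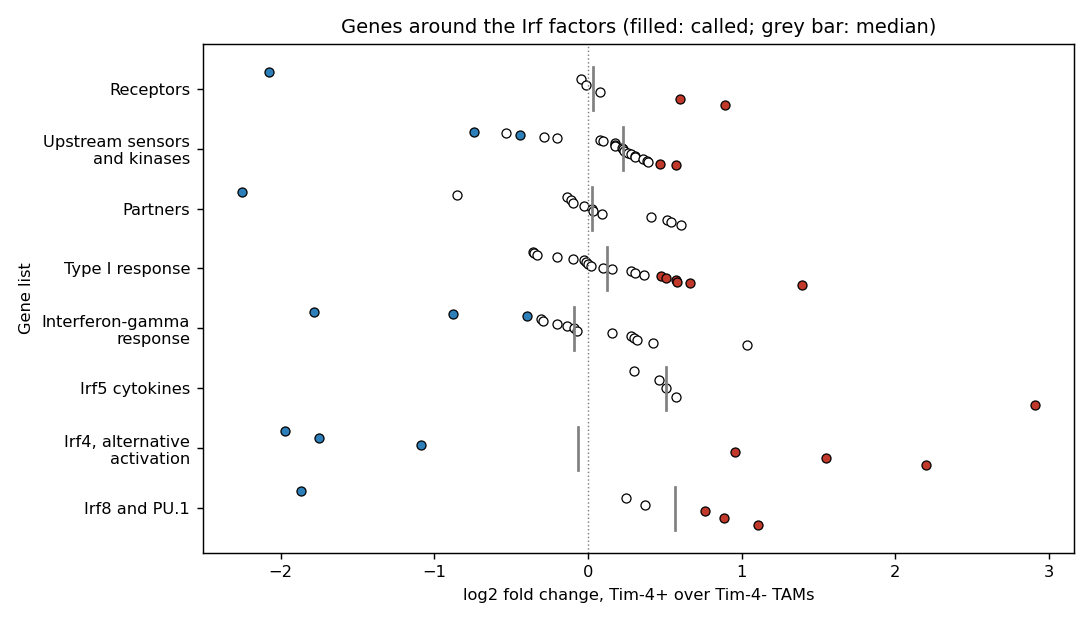
log2 fold change of Tim-4+ over Tim-4- TAMs for the tested members of 8 gene lists around the Irf factors; each circle is a gene, filled where called (red higher, blue lower), and the grey bar is the median of the list. Calls stand on both sides of 0 in 4 of the 8 lists.

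*Irf5*, *Irf4* and *Irf8* did not pass, and genes known as their targets or otherwise linked to them in macrophages were read next. *Irf5* targets are inflammatory cytokines, and against 8.97% of all genes tested, 1 of 5 rose. It was *Il6*, by 2.91 on the log2 scale (SE 0.29, edgeR adjusted p = 0.00613), from 10.5 ± 12.4 to 57.6 ± 42.1 CPM (SD, n = 4). *Tnf* (0.51) and *Il1b* (0.57) did not pass. Against 8.43% of all genes tested 0 fell, and 0 had a negative value with an unadjusted p under 0.05. By DESeq2 0 fell, against 13.8% of all genes. The median was 0.51. Without pair 793, 2 rose, *Tnf* being the second, against 800 of all 17122 genes tested. *Il12a* was not tested.

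Of 6 tested alternative activation genes linked to *Irf4*, 3 rose and 3 fell, against 8.97% and 8.43% of all genes tested. *Arg1*, which encodes arginase-1, rose by 1.55 (SE 0.21, edgeR adjusted p = 0.00778), from 1455 ± 858 to 4047 ± 1602 CPM (SD, n = 4). The chemokine gene *Ccl22* rose by 2.20, and *Kdm6b*, the histone demethylase upstream of Irf4, rose by 0.96. *Mrc1*, which encodes CD206, fell by 1.09, and *Chil3* and *Retnla* fell by 1.75 and 1.97. The median was -0.06. Without pair 784, 0 rose and 1 fell, against 91 and 67 of all 17038 genes tested. *Ccl17* was not tested.

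Of 6 myeloid genes that Irf8 and PU.1 regulate, 3 rose and 1 fell, against 8.97% and 8.43% of all genes tested. The median was 0.57. *Cybb*, a subunit of the phagocyte NADPH oxidase, rose by 1.11, *Cst3*, which encodes cystatin C, by 0.89 and *Klf4* by 0.76. *Tlr9*, a sensor of DNA, fell by 1.87 (SE 0.27, edgeR adjusted p = 0.00804) at a level of 8.05 CPM in Tim-4- TAMs. *Csf1r* (0.25) and *Ctss* (0.37), the most abundant of the list, did not pass. None rose without pair 784 or without pair 779, and 0 fell without pair 784. Of all genes, 91 rose without pair 784 and 469 without pair 779, and 67 fell without pair 784. All of these lists were read from the fit across all genes. Without the block, *Ifnar2* rose and *Batf3* fell, and 0 other genes of the 8 lists passed in either direction by edgeR. Of all genes, 147 then rose and 85 fell.

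Markers of other blood cells were read as summed levels, and the part of these cells in the Irf values was not tested. T and NK cell markers summed to at most 2.25 CPM in Tim-4+ TAMs and ranged from 3.58 to 9.61 CPM in Tim-4- TAMs. In Tim-4- TAMs that sum was mostly *Cd4* (3.42 to 7.48 CPM), the only member tested. *Cd3d*, *Cd3e* and *Cd3g* reached at most 0.331, 0.273 and 0.535 CPM in any library. B cell markers summed to 5.36 to 15.5 CPM and 10.5 to 18.4 CPM, neutrophil markers to 1.58 to 3.09 CPM and 1.78 to 2.86 CPM, and eosinophil and mast cell markers to 0.494 to 1.11 CPM and 0.370 to 12.2 CPM. Plasma cell markers, which matter here because plasma cells use *Irf4*, summed to 5.55 to 17.8 CPM in Tim-4+ and 12.2 to 44.2 CPM in Tim-4- TAMs, and 2 of 3 tested fell. Monocyte markers summed to 52.6 to 111.3 CPM and 167.9 to 207.6 CPM, with 2 of 4 lower in Tim-4+ TAMs. Markers of plasmacytoid dendritic cells, which hold much *Irf7* at rest, summed to 231.9 to 328.5 CPM in Tim-4+ and 272.8 to 351.3 CPM in Tim-4- TAMs. That sum was mostly *Bst2* and *Tcf4*, and the defining marker *Siglech* reached at most 0.210 CPM in Tim-4+ and 0.273 CPM in Tim-4- TAMs. *Bst2* is also a member of the type I response list.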

How the data were processed

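RNA of Tim-4+ and Tim-4- TAMs was measured by the authors with stranded total RNA libraries, and the deposited files hold raw read counts per gene and lane as whole numbers, 16 lanes of 8 libraries. The submitters' processing notes name TopHat2 2.0.13, Cuffdiff 2.2.1 and GRCm38, whereas the counting tool and its strand setting are not given in the sources used here. Reads in the counter's summary lines, 18.9% to 32.9% of a lane, were left out. The lanes of a library were summed. The lane listed by symbols (lane 1, Tim-4-, pair 793) was joined by row order after its first row, *Timd4*, was moved to its place, with 96.9% of symbols matching. Names and positions are from GENCODE M21, which held 98.4% of identifiers.

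Genes reaching 10 counts in 4 or more libraries were fitted with edgeR 4.0.16 (R 4.3.3; TMM, robust quasi-likelihood, pair block), and p-values were adjusted by Benjamini-Hochberg over 16861 genes. The pair numbers are those of the GEO labels, and the study's own material may number the pairs otherwise, which would leave the partners as they are. Deviations within pairs correlated at 0.277 to 0.498. Nothing says whether the pairs are separate animals. With the block, p-values thus measure only the spread of the differences within these pairs, moderated across genes. The fit was tested on simulated data. CPM per kb used the union of annotated exons. The floor of 3 counts covers counting error only. DESeq2 1.42.0 served as an alternative, beside total-count scaling, DESeq2 size factors, other filters, other lanes, no block, and each pair left out.

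The members and gene lists were chosen with earlier results of these data known. Named genes are the Irf genes reported, *Timd4*, the 2 most abundant and the most changed called member of each list, and the 3 genes most like each called Irf gene. Other called list members were named after their values were seen. Some genes and the list of JAK and STAT genes are not reported here.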

Additional observations from a re-analysis of the deposited data

Results flagged for a closer look

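In 22 groups of 4 libraries (the level of each of 8 Irf genes and 3 ratios of Irf levels, in each subset), a library stood far from the other 3 in 2 cases, and chance alone gives this in about 1 of 20 groups. *Irf2* reached 145.8 CPM in the Tim-4- library of pair 793, against 82.51 to 86.87 CPM in the other 3. *Irf5* was at 171.6 CPM in the Tim-4+ library of pair 779, against 258.4 to 269.9 CPM in the other 3, and the Tim-4- library of the same pair was also the lowest of its subset, at 167.1 CPM.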

How the results depend on the processing

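Relative to TMM, scaling by total counts moved the median of all genes to -0.36 on the log2 scale, and the other settings moved it by at most 0.05. With total counts 789 genes were higher and 4906 lower in place of 1512 and 1421, and 2 Irf genes were lower. These were *Irf3* at -0.50 and *Irf5* at -0.34, both now past the threshold. The values were -0.33 for *Irf1*, -0.20 for *Irf4*, -0.28 for *Irf8* and -0.19 for *Irf9*, which did not pass. *Irf2* and *Irf7* kept their call at 0.74 and 0.77. Signs also turned for *Csf1r* (-0.11), *Irak1* (-0.050), *Oas2* (-0.050) and *Oasl2* (-0.36). Without the replicate block 147 genes were higher and 85 lower, and 0 Irf genes were higher. *Irf2* was then 1.10, *Irf7* 1.26, *Irf4* -0.017 and *Oasl2* -0.052. By DESeq2 2328 genes were lower.

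With each pair left out in turn, 91 to 1608 genes were higher and 67 to 1975 lower, 1 to 2 Irf genes were higher, and *Irf2* ranged from 0.91 to 1.23, *Irf1* from -0.17 to 0.17, *Irf5* from -0.024 to 0.076 and *Irf8* from -0.016 to 0.22. The counts fell most without pair 784. *Ifnar1* ranged from -0.15 to 0.026, *Ifngr1* from -0.072 to 0.060 and *Oasl2* from -0.10 to 0.047. With lane 2 alone *Irf5* was -0.0073 and *Oasl2* -0.022. *Oasl2* was -0.015 with no filter, -0.0071 without the lane listed by symbols and -0.0015 with that lane joined by symbol. All these sign changes concern values that had not passed with TMM and the block, and where no construction is named the cause was not tested. The 3 ratios kept their direction with lane 2 alone and with each pair left out, while gene length and the block cannot move these means.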
